A study of Paralichthys olivaceus with 22 samples.

Results

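A set of 100 contigs of a custom oligonucleotide array for Japanese flounder (Paralichthys olivaceus) was followed across 22 kidney samples. The set was chosen from measured values, as the contigs whose signal was higher than in PBS after E. tarda FKC at 6 h, after E. tarda FKC at 12 h and after S. iniae FKC at 12 h, each by at least 1.5 on the log2 scale (2.83-fold). Each had to be well above background, by the scanner software's own flag, on all 7 E. tarda arrays. The members are 100 of the 14052 probes that carry contig (JFC) names, among 14481 probes on the array, and each stands for a different contig measured by 1 spot. S. iniae FKC at 6 h had no part in the choice.

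The 6 groups were kidneys taken 6 h or 12 h after fish had received an Edwardsiella tarda FKC preparation, a Streptococcus iniae FKC preparation or PBS as the control. Each FKC preparation had 3 arrays at 6 h and 4 at 12 h, and PBS had 4 at each time. FKC is the labels' own term, which in fish vaccine work usually stands for formalin-killed cells. The labels give no strain, dose, fish age or genotype for these groups, and do not say whether the numbered samples of a group came from separate fish. The p-values therefore rest on how far these samples of a group lie apart, and that spread may be technical.

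In bony fish the kidney is a main blood-forming and immune organ as well as an excretory one, and holds many phagocytes and developing lymphocytes. E. tarda, a Gram-negative bacterium, and S. iniae, a Gram-positive one, both cause disease in farmed flounder. The outer membrane of Gram-negative bacteria carries lipopolysaccharide, which Gram-positive bacteria lack, while lipoteichoic acids and a thick peptidoglycan layer mark the Gram-positive wall. Leukocytes of fish are known to answer killed bacteria of both kinds with genes for cytokines, antimicrobial proteins and enzymes. Which genes the contigs stand for is not known here, because 0 of the array's names matched the RefSeq gene table used and the files pair them with no symbols or sequences. Members are therefore given by contig ID only, and no markers could be checked for the tissue or its cells. In a whole-tissue sample, a change in the number of cells of a type and a change in RNA per cell cannot be told apart.

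Signals are given as normalized log2 values, the log2 processed signal minus that array's own 75th percentile, so that 0 is a signal at the 75th percentile. Between 8084 and 10666 probes were well above background per array. The FKC arrays of 6 h had 9583 to 10666 and all other arrays 8084 to 9794. The software's RMS value for the trend fitted across an array was 0.146 to 0.243 on the FKC arrays of 6 h. On all other arrays it was 0.063 to 0.089. The precision is limited by how many arrays a group holds. The FKC arrays of 6 h lay on 1 slide, those of 12 h on another, and all 8 PBS arrays on the third of the 3 slides, so slide and treatment cannot be told apart in any comparison with PBS. At each time the preparations shared a slide but lay in different rows of it. Time and slide cannot be told apart either where FKC arrays of 6 h and 12 h are compared. The 6 spike-in control probes that were read on all arrays differed from PBS by -0.95 to -0.0045 (log2) after E. tarda FKC at 6 h and by -0.52 to 0.14 after S. iniae FKC at 6 h. At 12 h the same 6 differed by -0.31 to -0.17 and by -0.34 to -0.23. At an unadjusted limma p under 0.05, 2 of these probes differed after E. tarda FKC at 6 h and 1 after S. iniae FKC at 6 h. For both preparations at 12 h, 0 did. Their part in the members' values was not tested.

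After E. tarda FKC the members' mean change was large at both times. These are the values that chose the set, so they are a description. At 6 h the fitted change ran from 1.62 to 7.59 (log2), with a median of 3.35 (10.2-fold) against -0.01 over the 11066 probes tested. At 12 h it ran from 1.55 to 8.48, with a median of 3.88 (14.7-fold) against -0.12. The fitted change was larger at 12 h than at 6 h in 72 members and smaller in 28. Among all 11066 tested probes it was larger at 12 h in 5071 and smaller in 5995. The members' PBS mean was lower at 12 h than at 6 h in 65 and higher in 35, which enters the members' counts. By limma with Benjamini-Hochberg adjustment, 99 members were called higher at 6 h, where 14.1% of all tested probes were, and 100 at 12 h, where 15.6% were. Since the choice fixed these counts, nothing is read from them. The member not called at 6 h was JFC17037_1_code.

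Many members were dim without bacteria. Of the 100, 66 were well above background on all 4 PBS arrays of 6 h and 14 on none of them, and at 12 h these numbers were 58 and 27. Where no PBS array read a probe well above background, the ratio is a lower bound. It sets the mean of the brighter group against, on each array, the higher of the dimmest well-read signal and the probe's own. For the 14 such members at 6 h the E. tarda signal was at least 1.70-fold to at least 56.9-fold that of PBS, and for the 27 at 12 h at least 1.52-fold to at least 80.2-fold. With these members at their bounds, the median ratio was 9.61-fold at 6 h and 12.6-fold at 12 h. A further 9, 3 and 8 members at 6 h were well above background on 1, 2 and 3 PBS arrays. At 12 h these numbers were 8, 2 and 5. Their fitted ratios were kept without a bound, though their PBS means include signals not well above background. Counted the same way, 55 members were at least 8-fold higher at 6 h and 8 at least 64-fold, and at 12 h these numbers were 63 and 11. For S. iniae FKC the bound fell under 1 in 4 of the 27 members at 12 h and in 1 of the 10 that S. iniae arrays alone read at 6 h, so no ratio to PBS can be given for those.

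**Figure D1:**
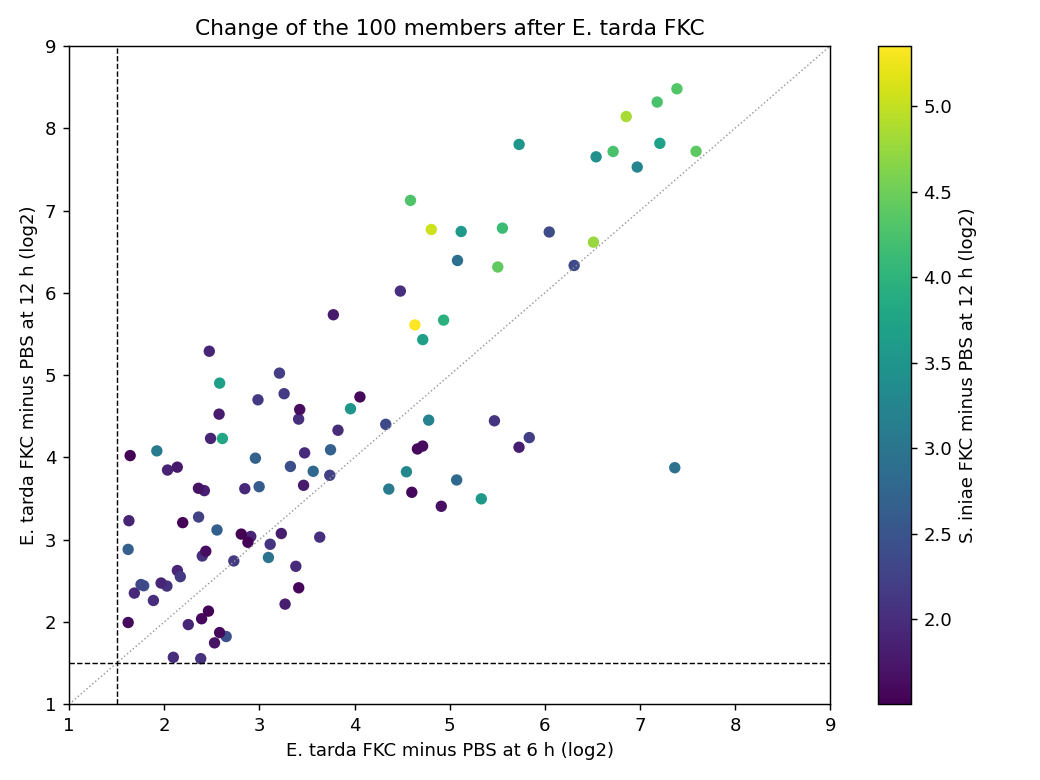
Mean change of each of the 100 contigs after E. tarda FKC against PBS at 6 h (horizontal axis) and 12 h (vertical axis), in log2 units, as fitted, also for the members that no PBS array read well above background (14 at 6 h and 27 at 12 h). Dashed lines mark the threshold of 1.5, the dotted line equal change, and the colour the change after S. iniae FKC at 12 h; 72 of 100 points lie above the dotted line.

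The highest mean change over the choosing comparisons was that of JFC00244_1_code. On the PBS arrays of 6 h it read -1.58, -3.14, -3.15 and -1.33, and on the E. tarda arrays of 6 h 5.05, 4.84 and 5.38. On the PBS arrays of 12 h it read -1.49, -0.90, -2.64 and -1.65, against 6.94, 6.50, 6.78 and 7.003 after E. tarda FKC. S. iniae FKC lay between these groups without touching either, at 0.30, -0.74 and 0.92 at 6 h and at 1.599, 2.60, 4.07 and 2.28 at 12 h. The difference from PBS was 7.39 ± 0.55 (SE) and 8.48 ± 0.51 for E. tarda FKC at 6 h and 12 h, and 4.31 ± 0.51 for S. iniae FKC at 12 h.

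JFC24307_1_code was not well above background on any of the 8 PBS arrays, where it read between -6.10 and -5.30. After E. tarda FKC it read 1.55, 2.33 and 1.21 at 6 h and 2.76, 1.98, 1.91 and 2.20 at 12 h, at least 48.4-fold and at least 52.8-fold above PBS. After S. iniae FKC it read -1.92, 0.45 and 1.28 at 6 h and -2.67, 0.35, -0.62 and -1.49 at 12 h. All treated arrays lay above all PBS arrays, and replicate 1 was the lowest S. iniae array at both times. At 12 h the S. iniae signal was at least 5.28-fold above PBS.

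**Figure D2:**
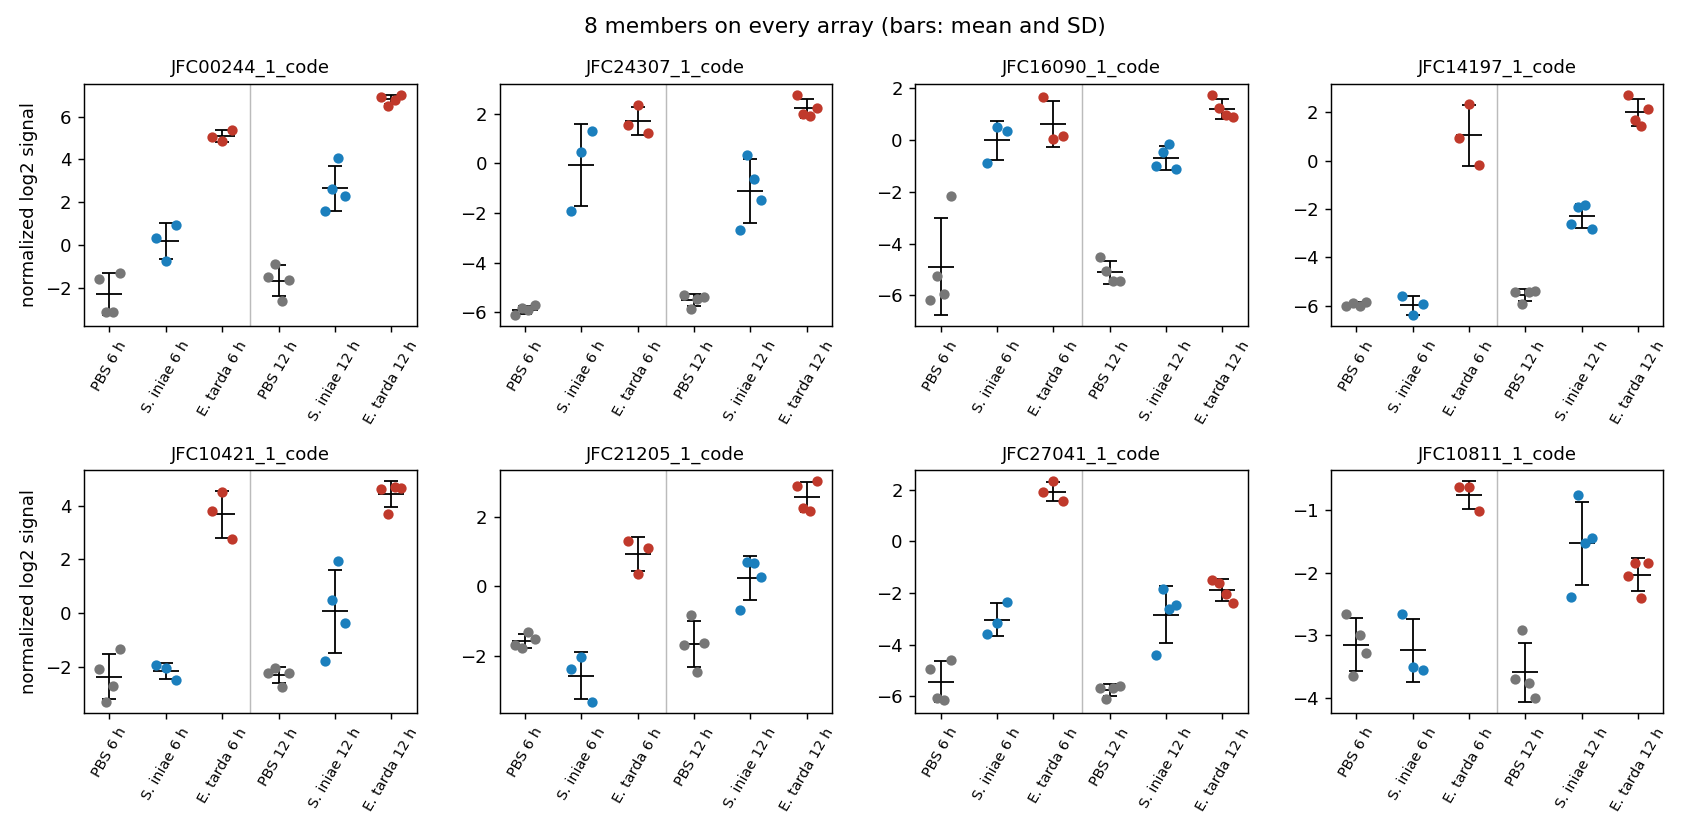
Normalized log2 signal (vertical axis) of 8 named contigs on every array, by group (horizontal axis; grey PBS, blue S. iniae FKC, red E. tarda FKC), with the mean and SD of each group in black. JFC24307_1_code and JFC16090_1_code are far above PBS in both S. iniae groups, whereas JFC14197_1_code, JFC10421_1_code, JFC21205_1_code and JFC10811_1_code overlap with or lie under PBS after S. iniae FKC at 6 h and lie higher at 12 h.

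S. iniae FKC at 12 h gave smaller differences than E. tarda FKC. Its change, which also entered the choice, ran from 1.504 to 5.35 with a median of 2.16 (4.46-fold) against -0.09 over all tested probes. With the members unread on PBS arrays at their bounds, the median was 3.86-fold, and 17 members were at least 8-fold higher. limma called 92 members higher, beside 5.82% of all tested probes. All 4 S. iniae arrays lay above all 4 PBS arrays in 90 members, beside 7.99% of tested probes. The choice used this contrast, so neither count is evidence of its direction. The highest fitted value belonged to JFC19190_1_code, which read 0.73, 1.19, 1.30 and 1.51 after S. iniae FKC against -3.75, -3.17, -4.27 and -5.48 after PBS. On PBS replicates 1, 3 and 4 it lay under the dimmest well-read signals of those arrays, -3.42, -3.40 and -3.32. Its place as the highest thus holds for the fitted value only. The E. tarda arrays of this contig at the same time, at 0.14, 2.07, 1.31 and 2.25, spanned the range of the S. iniae arrays. Every member stood well above background on 1 or more of the 4 S. iniae arrays, and 88 on all of them.

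S. iniae FKC at 6 h is the one comparison with PBS whose treated arrays had no part in the choice. It still shares the PBS arrays of 6 h with it, so a PBS value that is low by chance enters both. The S. iniae arrays of 6 h also lay on the same slide as the E. tarda arrays of 6 h, which helped choose the set. All PBS arrays lay on another slide, so a difference between these slides would enter both comparisons too. The members were higher by a median of 1.04 (log2; 2.06-fold), from -0.998 to 5.83, with quartiles of 0.46 and 1.91, while the median of all tested probes was -0.0031. With the 10 members read by S. iniae arrays but by no PBS array at their bounds, the median was 1.83-fold. By limma's test 30 of the 100 rose, beside 1.04% of all tested probes, and 0 fell, beside 0.551%. At an unadjusted p under 0.05, 54 were higher, beside 7.17% of all tested probes, and 1 was lower, beside 6.61%. All 3 S. iniae arrays lay above all 4 PBS arrays in 45 members, beside 8.78% of tested probes, and this held for each of the 30 that rose. The change reached 1.5 in 32 members, was under 0.5 in 27 and below 0 in 10.

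How many members rose varied with single arrays and with the model. There were 15 without S. iniae FKC replicate 2, 18 without S. iniae FKC replicate 3 and 18 without PBS replicate 3 of 6 h, and 9 when the compared groups were fitted alone. The highest number was 35, with array weights. In a fit limited to probes well above background on all 22 arrays, 19 of the 57 members among them rose, and 17 of these were among the 30. The share of all tested probes called in each of these settings is not given here. Whether calls were lost in the members alone or over all probes was not tested. In the main fit a rise after S. iniae FKC was called already at 6 h for 30 members. For the other 70 the difference at 6 h did not pass the test, which does not show that they stayed at the level of PBS.

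**Figure D3:**
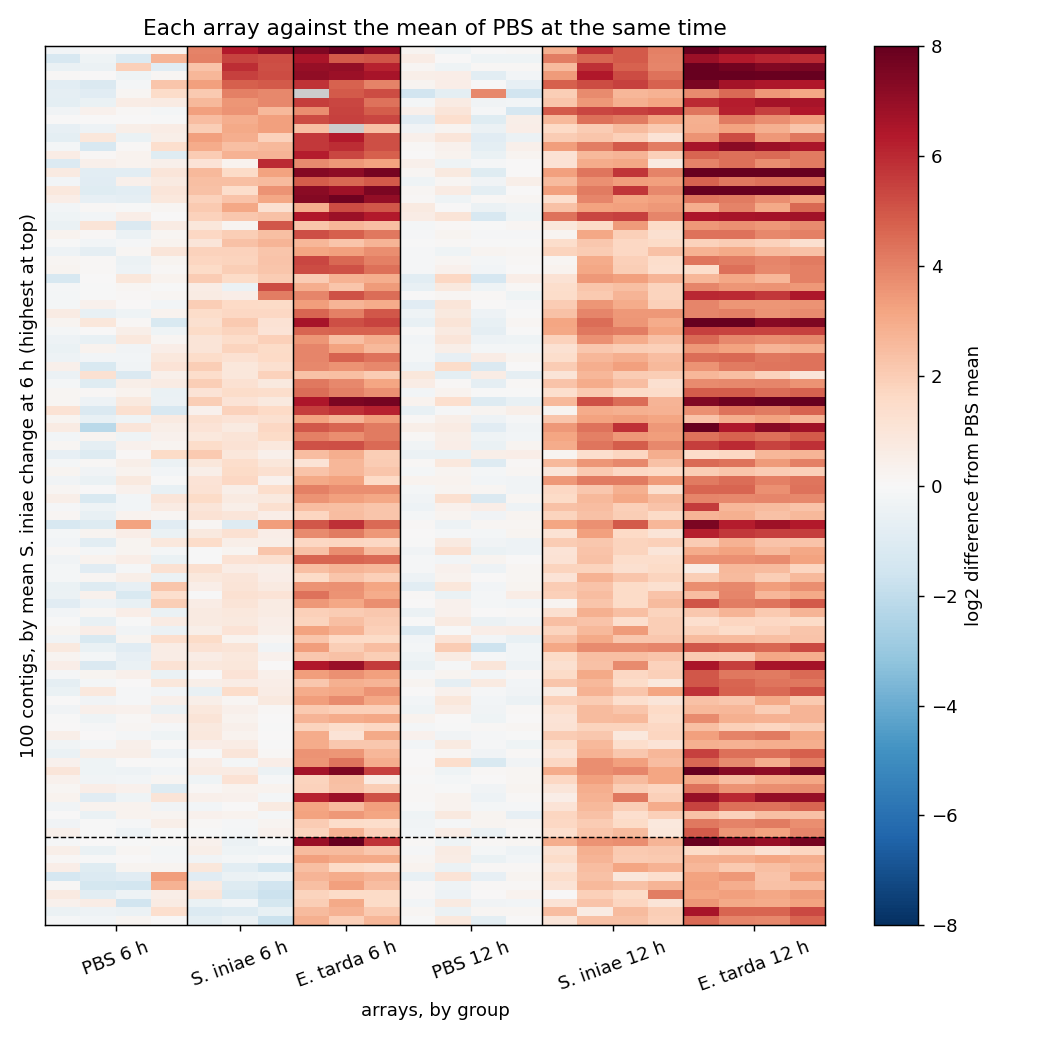
Log2 difference of each array from the PBS mean at that time (colour, with differences over 8 drawn as 8 and missing values grey) for the 100 contigs (rows, ordered by the mean change after S. iniae FKC at 6 h) on the 22 arrays (columns, by group). The S. iniae columns of 6 h fade from the top downwards, and the 10 contigs under the dashed line have a mean below PBS there, while the other FKC columns are above PBS throughout apart from single arrays.

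The 30 members with a rise under S. iniae FKC at 6 h had a median change of 2.42 there, of 3.14 under S. iniae FKC at 12 h and of 4.75 under E. tarda FKC at 6 h. Those that did not pass had medians of 0.70, 2.04 and 2.86. The difference was larger at 12 h than at 6 h in 86 members and smaller in 14, of which 10 were among the 30 that rose at 6 h. Over all 11066 tested probes it was larger at 12 h in 5077 and smaller in 5989. The choice asked for at least 1.5 at 12 h and set no floor at 6 h, which favours a larger value at 12 h. Likewise, members called at 6 h are those with high values there. These counts are therefore a description. A further 132 contigs met the same E. tarda criteria but stayed under 1.5 after S. iniae FKC at 12 h. Their median at 6 h was 0.60, and 18 rose (13.6%), beside 30% of members and 1.04% of all tested probes. In 57 (43.2%) all S. iniae arrays lay above all PBS arrays, beside 45% of members and 8.78% of tested probes, so this trait was not particular to the members. These contigs and the members were measured on the same arrays, and no test was made between them.

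**Figure D4:**
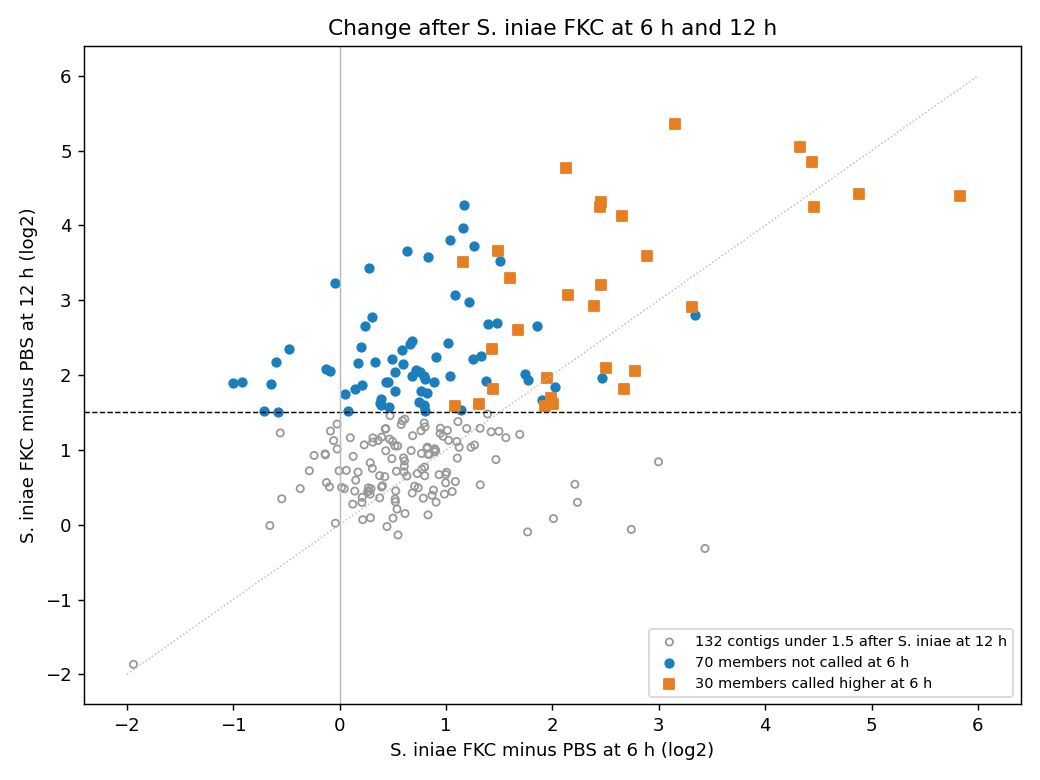
Fitted mean change after S. iniae FKC against PBS at 6 h (horizontal axis) and 12 h (vertical axis), in log2 units, for the 30 members called higher at 6 h (orange squares), the 70 not called (blue) and the 132 contigs with the same E. tarda criteria but under 1.5 after S. iniae FKC at 12 h (open circles). The dashed line is the 12 h threshold that separates members from the others by construction, and the dotted line marks equal change; 14 members lie below it.

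After S. iniae FKC at 6 h JFC24307_1_code, read on no PBS array, was at least 14.3-fold higher (limma adjusted p = 6.73e-05). It also rose in every alternative setting in which it was tested. JFC16090_1_code read -0.88, 0.51 and 0.35 after S. iniae FKC at 6 h, against -6.19, -5.26, -5.96 and -2.15 after PBS, where 1 of 4 arrays was well above background. The difference was 4.88 ± 0.69 (limma adjusted p = 0.000724), and the E. tarda arrays of 6 h, at 1.66, 0.05 and 0.14, overlapped with those of S. iniae. JFC03540_2_code differed from PBS by 4.46 ± 0.77 (limma adjusted p = 0.00496), where 1 of 4 PBS arrays was well above background, with a wide spread over the S. iniae arrays at -2.64, 0.996 and 0.22. In JFC00907_1_code the S. iniae arrays read -0.07, 2.76 and 2.50 against -2.61, -2.69, -3.03 and -2.53 for PBS, a difference of 4.44 ± 0.61 (limma adjusted p = 0.000578). JFC16090_1_code, JFC03540_2_code and JFC00907_1_code were not called when the compared groups were fitted alone. JFC03540_2_code was also not called without S. iniae FKC replicate 2 of 6 h. Replicate 1 was again the lowest S. iniae array of 6 h in each of these contigs. Over all members, that array lay under the group's mean in 55, beside 45.4% of all probes, and above it in 45, beside 54.5%.

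Besides JFC24307_1_code, 3 members, picked out after their values were seen, rose in every setting in which they were tested. JFC20191_1_code read -2.73, -1.82 and -1.50 and was at least 3.69-fold above PBS, whose 4 arrays of 6 h all read it as too dim (limma adjusted p = 0.000245). JFC26557_1_code read -1.34, -0.96 and -0.55 and was at least 7.24-fold above PBS (limma adjusted p = 0.00352). JFC19190_1_code read -0.24, 0.11 and -0.93 against -3.79, -3.14, -3.41 and -3.67 after PBS, higher by 3.15 ± 0.52 (limma adjusted p = 0.00294). The highest change that did not pass was 3.34 ± 0.97 in JFC27604_1_code (limma adjusted p = 0.101), whose PBS arrays of 6 h ranged from -4.52 to -2.18, with 2 of 4 well above background.

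At the other end stood members with large changes after E. tarda FKC and values near PBS after S. iniae FKC at 6 h. JFC14197_1_code was not well above background on any PBS array or on any S. iniae array of 6 h, the latter at -5.61, -6.38 and -5.94. The E. tarda arrays of 6 h read 0.95, 2.34 and -0.17, at least 30.7-fold above PBS. At 12 h it was well above background on all 4 S. iniae arrays, at -2.62, -1.93, -1.84 and -2.84, at least 2.30-fold above PBS, and on the E. tarda arrays at 2.72, 1.66, 1.43 and 2.14, at least 45.1-fold above it. The groups of 12 h did not overlap.

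JFC10421_1_code was above background in all groups. After S. iniae FKC at 6 h it read -1.94, -2.04 and -2.50, within the PBS range of -3.30 to -1.34 (difference 0.20 ± 0.62, limma adjusted p = 0.928). The E. tarda arrays of that time read 3.81, 4.49 and 2.74. At 12 h the S. iniae arrays spread from -1.77 to 1.93, all above the PBS values of -2.75 to -2.03.

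JFC21205_1_code had the lowest fitted change at 6 h. The S. iniae arrays read -2.36, -2.01 and -3.31, all under the PBS values of -1.68, -1.75, -1.31 and -1.50, a difference of -0.998 ± 0.39 that did not pass (limma adjusted p = 0.245). Its E. tarda arrays read 1.31, 0.37 and 1.10. At 12 h the S. iniae arrays read -0.68, 0.69, 0.67 and 0.28 and the PBS arrays -1.69, -0.83, -2.45 and -1.63, so the S. iniae mean lay under PBS at 6 h and above it at 12 h. The next lowest, JFC01409_1_code and JFC21187_1_code, were not well above background on any PBS or S. iniae array of 6 h, so no ratio is given for them there.

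Between the preparations, on 1 slide, the members' signal was higher after E. tarda FKC by a median of 2.38 (log2) at 6 h and 1.55 at 12 h. These differences use the arrays that chose the set and are a description. The E. tarda mean was the higher one in 99 members at 6 h and 95 at 12 h. All E. tarda arrays lay above all S. iniae arrays in 85 members at 6 h, beside 15.7% of tested probes, and in 65 at 12 h, beside 10.3%. limma called 81 members higher at 6 h, beside 7.74%, and 59 at 12 h, beside 9.45%. The exception at 6 h was JFC00783_1_code, which read 6.70 and 6.63 after E. tarda FKC, with the spot of replicate 2 left out as an outlier in the fit, and 6.25, 7.29 and 7.57 after S. iniae FKC.

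At 12 h the S. iniae mean was the higher in 5 members, JFC15044_1_code, JFC10811_1_code, JFC04496_1_code, JFC25399_1_code and JFC26557_1_code, by 0.10 to 0.63. None of these 5 was called in either direction. JFC10811_1_code read -0.64, -0.64 and -1.01 after E. tarda FKC at 6 h and -2.66, -3.50 and -3.55 after S. iniae FKC, which overlapped with the PBS values of -3.65 to -2.65. At 12 h the E. tarda arrays read -2.05, -1.84, -2.40 and -1.85 and the S. iniae arrays -2.38, -0.77, -1.52 and -1.44, so the groups overlapped.

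The course over time after E. tarda FKC also varied. JFC27041_1_code read 1.90, 2.32 and 1.57 at 6 h and -1.50, -1.60, -2.06 and -2.40 at 12 h. It was not well above background on any PBS array, and the ratio to PBS was at least 56.9-fold at 6 h and at least 3.07-fold at 12 h. S. iniae FKC gave -3.60, -3.17 and -2.35 at 6 h and -4.41, -1.85, -2.61 and -2.47 at 12 h, so both preparations overlapped in range at 12 h but not at 6 h. JFC26557_1_code read 1.36, 1.61 and 1.52 at 6 h and -1.71, -0.35, -0.84 and -1.27 at 12 h after E. tarda FKC.

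JFC10910_1_code differed in the opposite direction. After E. tarda FKC it read -1.16, -1.74 and -1.79 at 6 h and 0.47, 0.20, 0.40 and -0.06 at 12 h. The difference from PBS was 1.64 ± 0.25 (log2), or 3.12-fold, at 6 h, and the ratio was at least 13.5-fold at 12 h. After S. iniae FKC at 6 h, at -3.10, -3.32 and -2.98, it lay within the PBS range of -3.52 to -2.75. In JFC01409_1_code the E. tarda signal was at least 1.70-fold above PBS at 6 h and at least 9.07-fold at 12 h. JFC12526_1_code differed from PBS by 4.59 ± 0.65 at 6 h and 7.12 ± 0.60 at 12 h after E. tarda FKC. Its PBS arrays read 0.68, -2.10, 1.01 and 0.53 at the earlier time and -1.36, -1.17, -2.76 and -2.10 at the later one. The PBS mean of this contig was thus lower at 12 h, which makes its difference from PBS larger there. The larger difference is therefore not a measure of the E. tarda signal alone.

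Both PBS groups were controls in the choice, which favours low PBS values, so their comparison is a description. PBS at 12 h differed from PBS at 6 h by a median of -0.22 (log2), against -0.015 over all tested probes. limma called 0 members higher, beside 0.181% of tested probes, and 0 lower, beside 0.813%. At an unadjusted p under 0.05, 3 were higher, beside 4.14%, and 17 lower, beside 6.87%. All 4 arrays of 12 h lay above all 4 of 6 h in 4 members, beside 4.15%.

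Replicate arrays lay farther apart in the members after S. iniae FKC at 12 h than after E. tarda FKC at 12 h. Over the members, the median SD was 0.66 in the former group and 0.33 in the latter, where the medians over all probes were 0.32 and 0.35. In the 132 contigs under 1.5 after S. iniae FKC at 12 h the medians were 0.48 and 0.29. The members' median SD was also above that of all probes after PBS at 6 h (0.56 beside 0.28) and 12 h (0.46 beside 0.28), and after S. iniae FKC at 6 h (0.46 beside 0.27). The choice asked for detection on the E. tarda arrays only. The median member signal on the 4 S. iniae arrays was -0.25, 0.79, 0.84 and 0.44, and on the 4 E. tarda arrays 2.73, 2.33, 1.89 and 2.30. Replicate 1 lay under the S. iniae group's mean in 88 of 100 members, beside 47.0% of all probes, and replicate 2 lay above it in 93, beside 48.9%. In the 132 contigs that met the E. tarda criteria alone, replicate 1 was low in 70.5% and replicate 2 high in 81.1%. Without replicate 1 the members' median change after S. iniae FKC at 12 h was 2.38.

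**Figure D5:**
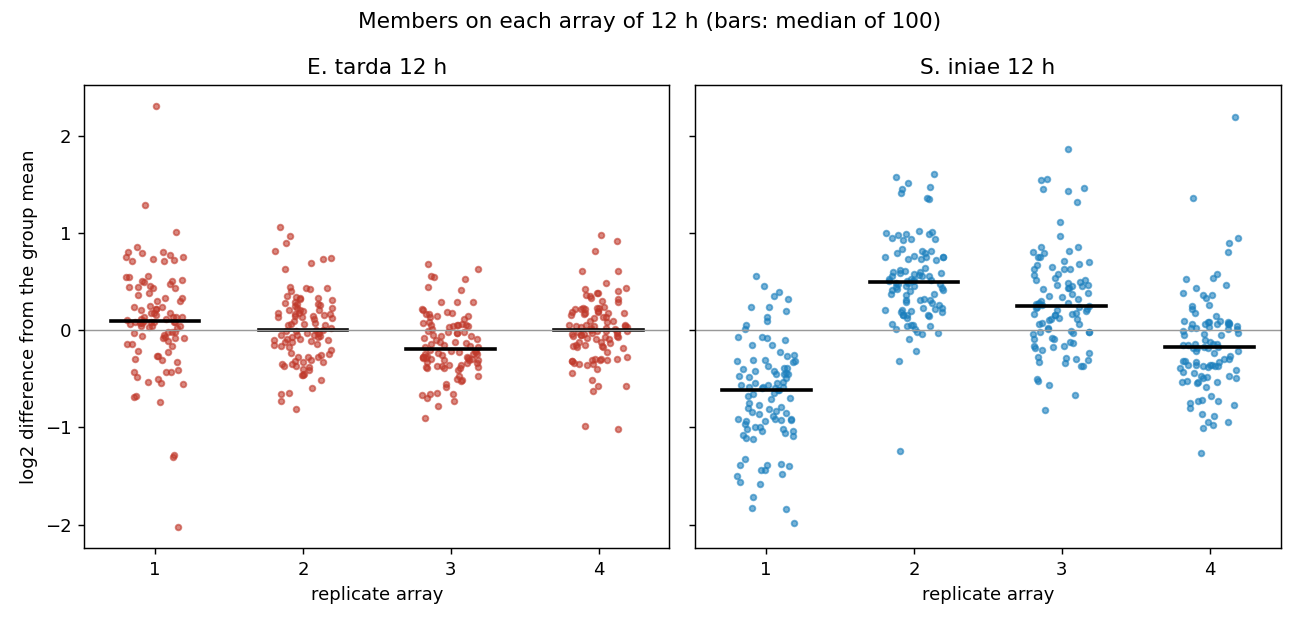
Log2 difference of each member from its group mean (vertical axis) on the 4 replicate arrays (horizontal axis) after E. tarda FKC (left) and S. iniae FKC (right) at 12 h, with the median of the 100 contigs as a black bar. After S. iniae FKC most points of replicate 1 lie below 0 and most of replicate 2 above it, while the bars of the E. tarda arrays lie closer to 0.

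Over the 22 arrays the members' profiles were alike, as the rule makes them, with a median Pearson correlation of 0.82 over the 4950 pairs (0.32 to 0.999). With the group means taken out, the median was 0.21. In 4 pairs it stayed above 0.95, and all of them were noticed after the values were seen. JFC00244_1_code and JFC03172_1_code correlated at 0.983 within groups, JFC03865_1_code and JFC11085_1_code at 0.971, JFC07721_1_code and JFC12156_1_code at 0.952, and JFC07294_1_code and JFC00914_1_code at 0.951. Without sequences it was not tested whether the contigs of a pair come from 1 gene. The contigs outside the set whose profile was most like the members' mean were JFC19690_1_code (r = 0.959), JFC21538_1_code (r = 0.958) and JFC22942_1_code (r = 0.952), over 22 arrays. Each stayed out through S. iniae FKC at 12 h, where the change was 0.85, 0.89 and 1.39.

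The threshold passes through a continuous range of values. The lowest of the choosing changes was under 1.6 in 12 members, and 6 contigs read on all E. tarda arrays stayed outside with a lowest change between 1.4 and 1.5. Closest inside stood JFC10922_1_code and JFC13595_1_code, at 1.504 and 1.52 after S. iniae FKC at 12 h. JFC18918_1_code, closest outside, changed by 1.49 after E. tarda FKC at 6 h and by 4.54 at 12 h, and JFC12828_1_code by 1.48 after S. iniae FKC at 12 h. A further 8 contigs passed the 3 thresholds but were not well above background on all E. tarda arrays.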

How the data were processed

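The deposited scanner files hold the intensity of each spot in 1 colour. Per the file headers, Feature Extraction 10.7.3.1 subtracted the background and removed trends on each array. Version 9.5.3.1 is the one in the submitters' processing notes. A log2 table deposited by the authors served as an alternative. Its values are the log2 signal less each array's 75th percentile and less the PBS median of that time, a reading that came within 0.1 for 99.99% of values and within 0.01 for 53.3%. Column medians ran from -0.279 to 0.0275.

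Here each array's 75th percentile (signals of 209 to 470) was taken from its log2 processed signals, which were averaged over spots of a probe. Spots flagged as outliers were kept for the choice of members and left out of the fit, with 2 members missing 1 value each; the choice gave the same 100 members without them. The 11066 probes with 3 or more of 22 arrays well above background were fitted with 1 mean per group in limma 3.58.1 (R 4.3.3, lmFit and eBayes, 16 residual degrees of freedom) and called at a Benjamini-Hochberg adjusted p under 0.05 over all of them. All 100 members were tested, passing the filter through the E. tarda arrays. The fit was also run on simulated data, with independent normal values and 1 spread per probe shared by all groups. The members' spread differed between groups, so that run cannot show how the fit serves them, and nothing is read from it. No pairing of samples by replicate number was seen, and the fit used none.

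Members and lists were chosen with earlier results of these data known. Named contigs have the highest mean change, the extremes after S. iniae FKC at 6 h, between preparations and between times, or lie nearest the threshold; fewer are printed because IDs have no gene names, and any others named were picked after their values were seen. Alternatives were other background corrections, scalings, filters, fits, thresholds and leaving out each array.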

Additional observations from a re-analysis of the deposited data

Results flagged for a closer look

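Groups of 4 arrays were tested for a stray array in the members' medians and in the named contigs, and 12 of 92 were found, where chance gives about 1 in 20. Many of the 92 share arrays and some rest on signals under background, so no excess over chance is read from this count. In the PBS group of 6 h, the highest array stood apart in JFC03540_2_code (-3.04, the others -5.81 to -5.40), JFC01409_1_code (-4.27, the others -6.08 to -6.00) and JFC10922_1_code (-0.17, the others -4.89 to -4.40). The lowest stood apart in JFC21187_1_code (-6.12, the others -4.26 to -3.93) and JFC12526_1_code (-2.10, the others 0.53 to 1.01). Of these, JFC01409_1_code and JFC21187_1_code were not well above background on any PBS array of 6 h.

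In the PBS group of 12 h, the lowest array stood apart in JFC03540_2_code (-5.83), JFC01409_1_code (-6.06), JFC14197_1_code (-5.92) and JFC27041_1_code (-6.13), none of which was well above background on any of its 4 arrays. The highest stood apart in JFC21187_1_code (-4.56, the others -5.53 to -5.48) and JFC13595_1_code (-0.87, the others -2.56 to -2.36). After E. tarda FKC at 12 h, JFC10421_1_code had 1 low array at 3.70, with the others between 4.63 and 4.71.

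In limma's direct comparison of the preparations, 81 members were called higher after E. tarda FKC at 6 h, beside 7.74% of tested probes. At 12 h 59 were, beside 9.45%. The E. tarda arrays, and at 12 h the S. iniae arrays, had chosen the members, so these counts are a description.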

How the results depend on the processing

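The rule found 43 contigs with normexp background correction and quantile normalization, 57 with all arrays well above background, 191 at a threshold of 1.0 and 53 at 2.0, and no fewer than 87 when 1 array was left out. The normexp setting added an offset of 50 to every signal, and such an offset lowers the log2 ratios of dim signals. Its part in the 43 was not tested. The number of members called higher in the 6 h comparison of S. iniae FKC with PBS was 9 with the compared groups fitted alone, of which 8 were among the 30, and 19 of 57 with the all-array filter. It was 35 with array weights, 15 to 32 with 1 array left out and 30 with the replicate block, the value without it. The share of all tested probes called in these settings is not set beside the counts. Same-numbered arrays of different groups had deviations that correlated between -0.31 and 0.39, and differently numbered ones between -0.39 and 0.29. No pairing by number was seen, which does not show that there is none. Of the 30, 4 were called in every setting in which they were tested and 26 were lost in at least 1 of 33.

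With normexp and quantile normalization the members' median change fell to 0.64 for S. iniae FKC at 6 h, 2.53 and 2.75 for E. tarda FKC at 6 h and 12 h, 1.38 for S. iniae FKC at 12 h and 1.71 for E. tarda against S. iniae FKC at 6 h. The E. tarda median at 6 h was 3.45 with quantile normalization and 3.11 with the all-array filter. Leaving out 1 array gave 0.87 to 1.11, 3.21 to 3.57, 3.72 to 4.03 and 2.01 to 2.38 for these 4 comparisons with PBS. It gave 2.32 to 2.58 and 1.33 to 1.73 for E. tarda against S. iniae FKC at 6 h and 12 h, and -0.35 to -0.15 for PBS over time. In contigs named as extremes or as nearest the threshold, no called change after S. iniae FKC at 6 h reversed direction. Among their uncalled changes in that comparison, those of JFC10421_1_code, JFC10811_1_code, JFC10910_1_code, JFC10922_1_code and JFC14197_1_code lay on both sides of 0 over the settings. The direction over the settings is not given for other members. The cause of the shifts between settings was not tested. The authors' values cannot give the change of PBS over time. Dim PBS signals limit the folds of 14 members at 6 h and 27 at 12 h to lower bounds. Members read on only some PBS arrays have folds that also rest in part on dim signals, and these were not bounded.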
